A study of Mus musculus with 12 samples.

Results

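Expression of 8 cardiac stress response genes was described in heart and cerebrum of mice given the membrane phospholipid phosphatidylserine (PS) or its vehicle alone. The genes were Nppa, Nppb, Ankrd1, Acta1, Xirp1, Xirp2, Csrp3 and Nexn, taken by name as a set of genes known from the loaded or injured heart. Each matched 1 transcript cluster whose only gene symbol in the platform annotation was that gene, so they made up 8 of the 21218 transcript clusters with 1 symbol and of 35556 in the whole table. The clusters were 10510265 for Nppa, 10510260 for Nppb, 10467191 for Ankrd1, 10582592 for Acta1, 10597764 for Xirp1, 10472426 for Xirp2, 10563770 for Csrp3 and 10502830 for Nexn.

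Heart muscle cells answer stretch and overload by turning on part of their fetal gene programme. The natriuretic peptides Nppa and Nppb are secreted as hormones that lower blood volume and pressure, and both serve as markers of wall stress. The other 6 genes encode an actin isoform and proteins of the sarcomere's Z-disc, of titin or of the intercalated disc, where mechanical force is carried and sensed.

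The 12 arrays fell into 4 groups of 3: heart PS, heart MCT, cerebrum PS and cerebrum MCT. PS mice were gavaged every other day with 200 mg/kg PS, and MCT mice with medium-chain triglycerides, the vehicle, each in 100 µl, for 3 months from 4 months of age. All arrays carry the same labels for strain, C57BL/6J, and genotype, a humanized knock-in of IKBKAP written FDloxP/+, a mouse model of familial dysautonomia; the controls carry the allele too. The labels conflict: 1 protocol counts 3 wild-type mice among the 6, and the source names give the PS dose per day. The arrays are called biological replicates, and the labels do not say whether a heart and a cerebrum of equal number came from the same mouse.

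Values were log2 intensities per transcript cluster and are given here as levels unless called a difference. Array medians lay between 4.89 and 5.0. The number of arrays limits the precision of every comparison. The 11 measured cardiomyocyte markers averaged 11.75 to 11.85 in heart PS and 11.60 to 11.86 in heart MCT arrays, against 5.39 to 5.58 in cerebrum PS and 5.31 to 5.44 in cerebrum MCT arrays. Some arrays stood apart within their group. Heart PS 2 was high in genes of cardiac remodelling and fibrosis, whose 16 measured members had a median 2.25 above the heart MCT mean, against 0.047 in PS 1 and 0.27 in PS 3. The atrial myosin light chain gene Myl7 was 6.80 in heart PS 3 and 8.53 in heart MCT 3, against 4.16 and 4.17 in the other PS hearts and 4.37 and 5.08 in the other MCT hearts. The female-expressed noncoding RNA Xist was 8.92 to 9.13 in the 3 PS hearts and 3.40 to 4.03 in the 3 MCT hearts, and in cerebrum it was 9.55, 3.32 and 9.86 in PS 1 to 3 and 3.34 to 3.77 in MCT arrays. Heart PS 2 and cerebrum PS 2 thus had opposite sex patterns and cannot both come from the same mouse. In heart the sex pattern and PS cannot be told apart. Markers of striatal neurons, a list added after the data were seen, averaged 6.75, 6.85 and 8.76 in cerebrum PS 1 to 3 and 9.43 to 9.60 in cerebrum MCT arrays.

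All 8 genes were far higher in heart than in cerebrum, in PS and in MCT mice. In limma with Benjamini-Hochberg adjustment, 8 of 8 were higher in heart of PS mice, where 75.9% of 12732 transcripts differed between the tissues in either direction and 38.3% were higher in heart. The same count, 8 of 8, held in MCT mice, against 75.5% of 12734 transcripts in either direction and 35.2% higher in heart. The shares show how widely the tissues differed, and a count of 8 has to be read against them. Ankrd1, a nuclear and titin-associated repressor protein, differed by 7.997 ± 0.19 in PS mice and 8.14 ± 0.11 in MCT mice between the tissues (log2 difference ± SE, 3 arrays per tissue). Acta1, the skeletal isoform of alpha-actin, differed by 3.19 ± 0.27 in PS mice and 4.18 ± 0.21 in MCT mice. The other differences were 5.57 to 7.07 in PS mice and 4.35 to 6.96 in MCT mice.

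The genes reached these calls through their heart level, and 7 of the 8 averaged below the filter of 5.04 over the cerebrum arrays. Their cerebrum values therefore lay near the background of the array, and the sizes of the tissue differences are approximate. Acta1 alone averaged above it, at 6.51 ± 0.25 in cerebrum PS and 6.15 ± 0.20 in cerebrum MCT arrays (SD, n = 3 each). Nexn was above the filter in the 3 cerebrum MCT arrays and below it in the 3 cerebrum PS arrays.

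**Figure D1:**
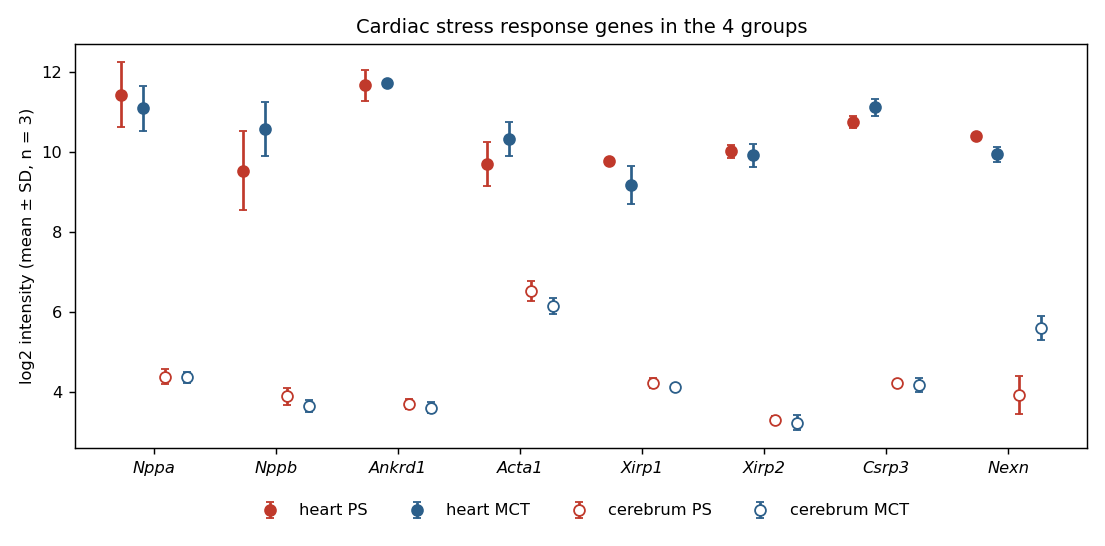
Mean log2 intensity of each of the 8 genes with its SD (n = 3 arrays per group), filled for heart and open for cerebrum, red for PS and blue for MCT. Every heart mean lies above every cerebrum mean of the same gene, and Nexn is the gene whose cerebrum groups lie farthest apart, at 3.92 in PS and 5.59 in MCT arrays.

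In heart, PS against MCT asks whether the treatment moved the stress programme. In limma 0 of the 8 genes passed an adjusted p of 0.05, where 0.33% of 12736 transcripts did. At an unadjusted p under 0.05 it was 3 of 8, Nexn, Xirp1 and Csrp3, against 23.7% of all transcripts. The groups did not overlap for 2 of 8, Xirp1 and Nexn, both higher in PS hearts, against 28.4% of all transcripts in either direction and 17.2% higher. The genes had no common direction: 4 differences were positive and 4 negative, with a median of 0.02, against 0.06 over all transcripts tested.

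Nppa, the precursor of atrial natriuretic peptide, was 11.31, 12.31 and 10.71 in PS hearts 1 to 3, and 11.34, 11.51 and 10.44 in MCT hearts 1 to 3. PS 2 was the highest of the 6 and the hearts numbered 3 were the lowest in each group, so that the groups overlapped. The difference, PS minus MCT, was 0.35 ± 0.42 (SE, adjusted p = 0.620 in limma). Without PS 2 it was −0.087 (adjusted p = 0.908).

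Nppb, the precursor of B-type natriuretic peptide, was 9.02, 10.67 and 8.92 in PS hearts, and 10.94, 11.02 and 9.80 in MCT hearts. PS 1 and PS 3 were below every MCT heart, while PS 2 was above MCT 3. The spread within each group, 1.75 in PS and 1.22 in MCT hearts, exceeded the difference of −1.05 ± 0.50, which has a 95% interval of −2.21 to 0.11 (adjusted p = 0.241 in limma). Without PS 2 the difference was −1.62 (adjusted p = 0.284). Over the same 6 hearts the Nppa and Nppb differences had opposite signs, but both intervals included 0, and without PS 2 both differences were negative. The difference between the genes was not tested.

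Acta1, which the fetal heart expresses and the overloaded heart expresses again, was 9.42, 10.33 and 9.36 in PS hearts, and 10.69, 10.42 and 9.87 in MCT hearts. The hearts fell into nearly the order seen for Nppb: PS 1 and PS 3 lowest, then MCT 3, then PS 2, with MCT 1 and MCT 2 highest. The difference was −0.62 ± 0.30 (adjusted p = 0.242 in limma), and −0.94 without PS 2 (adjusted p = 0.313). After each gene's own mean was taken away, Nppb and Acta1 differed by a root mean square of 0.384 over the 6 heart arrays. This is less than any other gene of the 8 differed from Nppb. Acta1 itself was slightly nearer to Ankrd1, at 0.377, and to Csrp3, at 0.380. Acta1 is close in sequence to other actin genes, and whether its probes also bind their transcripts was not tested.

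Ankrd1 was 11.46, 12.13 and 11.45 in PS hearts, and 11.78, 11.70 and 11.74 in MCT hearts. The MCT hearts lay within 0.08 of each other, with PS 2 above them and PS 1 and PS 3 below. The difference of −0.06 ± 0.19 (adjusted p = 0.864 in limma) averaged over hearts that lay on both sides of the MCT group. All 4 of these genes were higher in PS 2 than in PS 1 and PS 3, by 1.30 for Nppa, 1.70 for Nppb, 0.94 for Acta1 and 0.68 for Ankrd1. Xirp2 and Xirp1 were also highest among PS hearts in PS 2, by less, at 0.275 and 0.075 above the mean of the other PS hearts.

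**Figure D2:**
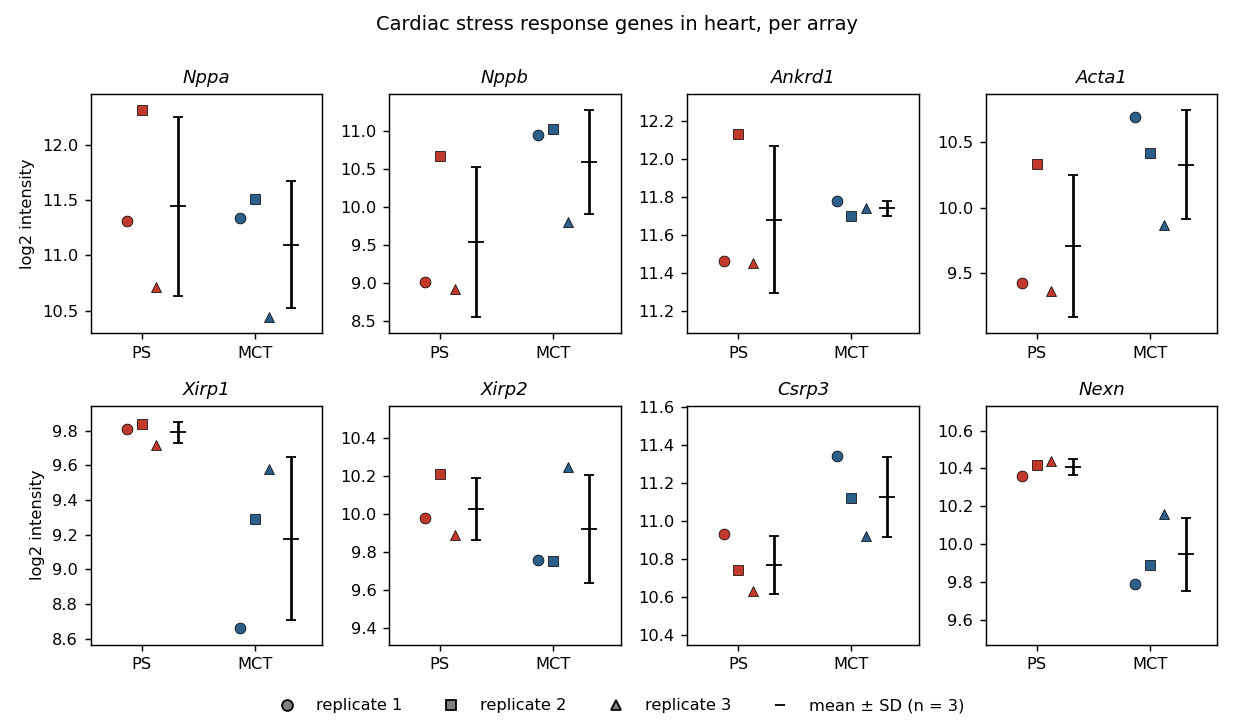
Log2 intensity of the 8 genes in each heart array, PS left and MCT right, with a marker per replicate and the mean ± SD (n = 3) beside each group; each panel has its own axis. Nppa, Nppb, Ankrd1 and Acta1 are highest among PS hearts in replicate 2, and so by less are Xirp1 and Xirp2. Xirp1 and Nexn are higher in every PS heart than in any MCT heart.

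The promoters of these 4 genes are shown because, of the 8, they were raised most in heart PS 2, a choice made from the values. Nppb and Acta1 also nearly shared their order over all hearts. The windows are from RefSeq on GRCm38.p6 and hold 250 bases before and 50 after the annotated start, read along the gene's strand. Of the 8 genes 6 had an entry, in 7 windows. Capitals mark matches on either strand to CATTCC, the core of the MCAT element bound by TEAD factors, AGATAA, a motif of GATA factors, TATAAA, the TATA box, AGAACA, the glucocorticoid receptor half-site, or the CArG box of serum response factor, and none of the matches overlapped.
Nppa, chr4:148000472-148000771, + strand: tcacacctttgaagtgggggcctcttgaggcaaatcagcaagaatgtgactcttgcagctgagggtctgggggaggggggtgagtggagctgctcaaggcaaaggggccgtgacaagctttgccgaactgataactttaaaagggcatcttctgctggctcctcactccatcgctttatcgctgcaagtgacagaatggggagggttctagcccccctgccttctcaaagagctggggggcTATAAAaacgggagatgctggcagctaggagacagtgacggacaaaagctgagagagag
Nppb, chr4:147985650-147985949, + strand: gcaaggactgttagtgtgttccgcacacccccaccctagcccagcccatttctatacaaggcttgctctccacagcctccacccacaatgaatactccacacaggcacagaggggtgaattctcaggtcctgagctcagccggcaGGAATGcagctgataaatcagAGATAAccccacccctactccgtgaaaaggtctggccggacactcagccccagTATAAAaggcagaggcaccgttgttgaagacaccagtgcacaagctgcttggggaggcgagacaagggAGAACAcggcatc
Acta1, chr8:123894726-123895025, - strand: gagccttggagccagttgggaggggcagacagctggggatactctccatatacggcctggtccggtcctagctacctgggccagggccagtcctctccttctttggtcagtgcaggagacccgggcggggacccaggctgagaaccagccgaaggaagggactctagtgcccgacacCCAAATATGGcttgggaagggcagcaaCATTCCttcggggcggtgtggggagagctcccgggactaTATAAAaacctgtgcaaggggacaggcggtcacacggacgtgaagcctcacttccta
Ankrd1, chr19:36119795-36120094, - strand: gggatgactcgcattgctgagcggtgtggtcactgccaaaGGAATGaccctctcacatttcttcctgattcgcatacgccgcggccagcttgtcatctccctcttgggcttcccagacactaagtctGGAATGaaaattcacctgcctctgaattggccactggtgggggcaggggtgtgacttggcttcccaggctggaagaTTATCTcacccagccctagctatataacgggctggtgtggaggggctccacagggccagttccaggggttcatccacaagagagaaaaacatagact

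The Nppb window held an MCAT core on the opposite strand beginning 105 bases before the start, a GATA motif beginning at 84, a TATA box at 31 and a glucocorticoid receptor half-site after the start. In the Acta1 window a CArG box began 73 bases before the start, an MCAT core at 46 and a TATA box at 7. The Ankrd1 window held 2 MCAT cores, at 210 and 123 bases before the start, and a GATA motif at 47, all on the opposite strand. In the Nppa window the TATA box, at 9 bases, was the match found. Over all 32817 promoter windows of that table, 14.7% held the MCAT core, 11.2% the GATA motif, 13.6% the TATA box, 19.0% the half-site and 1.63% the CArG box. The matches describe letters in these windows and nothing more.

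Remodelling genes were high in the same array. Postn, a matrix protein of activated fibroblasts, was 7.02, 10.41 and 7.18 in PS hearts, and 6.68, 7.18 and 6.62 in MCT hearts. Timp1, an inhibitor of matrix proteases, was 5.26, 8.49 and 5.38 in PS hearts, and 6.07, 5.90 and 5.15 in MCT hearts. Myh7, the slow myosin heavy chain of the fetal and stressed ventricle, was 10.10, 10.83 and 9.51 in PS hearts, and 9.54, 9.53 and 9.30 in MCT hearts. PS 2 was thus the highest of the 6 hearts for Postn, Timp1 and Myh7, as it was for Nppa, Ankrd1 and, by a small margin, Xirp1. Postn and Timp1 were chosen after their values were seen. Of the 14 tested genes of the remodelling list 0 passed in limma and 14 had positive differences, with a median of 0.90. Thbs4 differed by 1.40, Mfap5 by 1.40, Fstl1 by 0.92 and Col1a2 by 0.93 (adjusted p of 0.225 to 0.257). Without PS 2 these were 0.48, 0.62, 0.375 and 0.30, so much of their size came from that array. In bulk tissue, fewer cells of a type and less RNA per cell cannot be told apart. The part of PS 2's remodelling genes in the differences of the 4 genes was not tested beyond the fits without that array and with the list's mean as a covariate, in which Nppa differed by −0.20 and Nppb by −1.78 (adjusted p = 0.786 and 0.242).

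**Figure D3:**
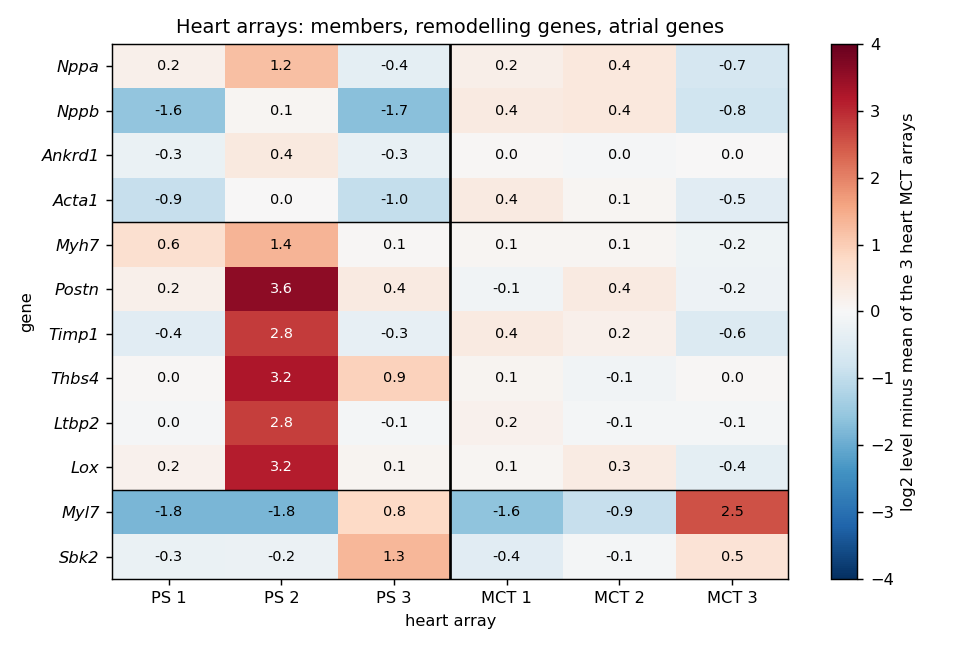
Log2 level of each gene in each heart array minus its mean over the 3 MCT hearts, PS left and MCT right, for 4 of the stress genes (top), Myh7 and 5 remodelling genes (middle) and 2 atrial genes (bottom). PS 2 stands out in the remodelling genes, while Myl7 is high in PS 3 and MCT 3.

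Xirp1 and Nexn were the genes whose heart groups did not overlap. Xirp1, an actin-binding repeat protein of the intercalated disc, was 9.81, 9.84 and 9.72 in PS hearts, and 8.66, 9.29 and 9.58 in MCT hearts. Nexn, which encodes nexilin, an actin-binding protein of the Z-disc and the junctional membrane, was 10.36, 10.42 and 10.44 in PS hearts, and 9.79, 9.89 and 10.16 in MCT hearts. For each gene the PS hearts lay close together, above all MCT hearts, and MCT 3 was the MCT heart nearest to them.

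The difference was 0.61 ± 0.22 for Xirp1 and 0.46 ± 0.13 for Nexn (SE, adjusted p = 0.167 and 0.134 in limma). Without MCT 1, the lowest heart for Xirp1, the Xirp1 difference was 0.36 (adjusted p = 0.360). Both passed without MCT 3, the heart high in Myl7, in a fit that called 3416 transcripts in all. In it Xirp1 was 0.82 higher in PS hearts (adjusted p = 0.0248) and Nexn 0.57 higher (adjusted p = 0.0130). Neither gene passed with MCT 3 and PS 3, both high in Myl7, left out together. With Myl7 as a covariate, chosen after seeing the data, Nexn differed by 0.52 (adjusted p = 0.0379) and Xirp1 by 0.72 (adjusted p = 0.0592). Of the 15 measured atrial markers, the mean was 6.15 to 6.63 in PS hearts and 6.03 to 6.68 in MCT hearts.

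Csrp3, the muscle LIM protein of the Z-disc, was 10.93, 10.74 and 10.63 in PS hearts, and 11.34, 11.12 and 10.92 in MCT hearts. PS 1 was 0.01 above MCT 3, so the groups touched. The difference was −0.36 ± 0.15 (adjusted p = 0.197 in limma). It was −0.46 without MCT 3 (adjusted p = 0.0457), in the fit above in which many more transcripts passed than with all arrays.

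Xirp2, the other Xin repeat gene, was 9.98, 10.21 and 9.89 in PS hearts, and 9.76, 9.75 and 10.25 in MCT hearts. MCT 3 was the highest of the 6 and the other MCT hearts the lowest, and the difference was 0.11 ± 0.17 (adjusted p = 0.711 in limma). Among the 8 genes the pairs nearest to each other over the heart arrays were Xirp1 with Nexn, at a root mean square of 0.20, Xirp2 with Nexn at 0.21 and Ankrd1 with Xirp2 at 0.23.

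**Figure D4:**
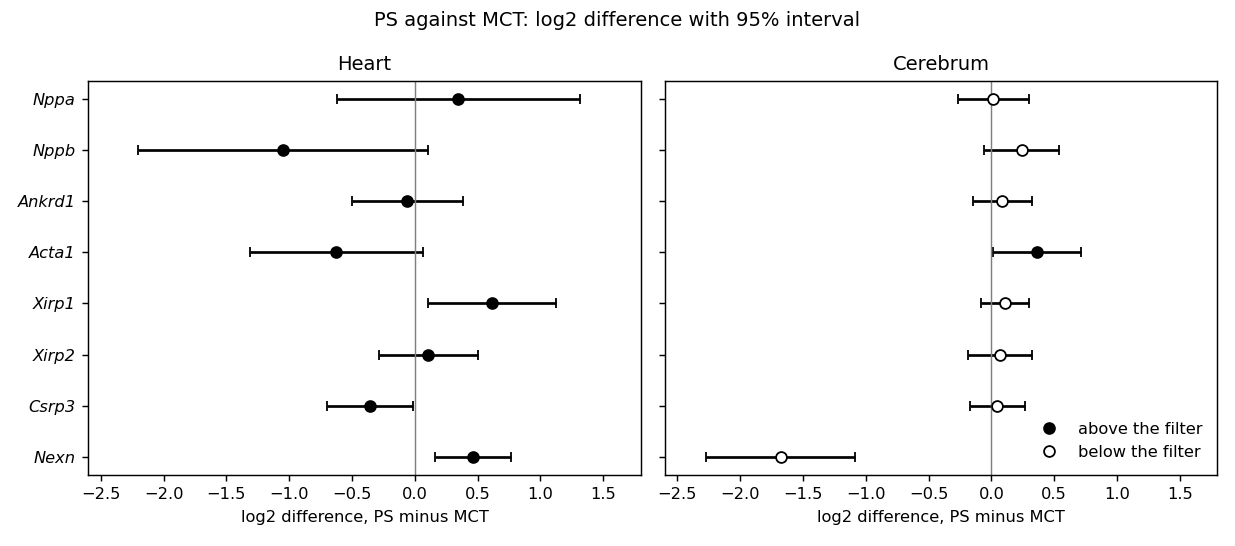
Log2 difference, PS minus MCT, with its 95% interval from limma for the 8 genes in heart (left) and cerebrum (right), filled where the gene averaged above the filter in that tissue and open where it did not. In heart the intervals of Xirp1, Csrp3 and Nexn exclude 0 before adjustment. In cerebrum those of Acta1, 0.0096 to 0.72, and Nexn, −2.27 to −1.09, exclude 0, and the Nexn interval lies farthest from 0. Intervals of open points come from the fit without a filter.

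The genes that act around these 8 were described from lists. For the natriuretic peptides, 0 of 12 tested genes of processing, receptors and downstream signalling passed in heart, with a median of 0.31 and 10 positive differences. Npr1, the guanylyl cyclase receptor of both peptides, was 7.03, 6.80 and 6.51 in PS hearts, and 5.74, 6.11 and 6.53 in MCT hearts (difference 0.65, adjusted p = 0.154). Corin, the protease that cleaves the Nppa precursor, was 10.59, 10.40 and 10.73 in PS hearts, and 9.73, 9.98 and 10.45 in MCT hearts (difference 0.52, adjusted p = 0.175). MCT 3 overlapped the PS range for both genes. The kinase Prkg1, activated by the cyclic GMP that Npr1 makes, differed by 0.59 and the phosphodiesterase Pde2a by 0.77 (adjusted p = 0.147 and 0.104). Endothelial markers moved with this group, averaging 9.08 to 9.31 in PS hearts and 8.36 to 8.88 in MCT hearts, with positive differences in 9 of 9 and a median of 0.58, and their part in it was not tested.

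Of 24 tested genes of the Z-disc and titin, 0 passed and 20 had positive differences, with a median of 0.22; vinculin (Vcl) differed by 0.79, Palld by 0.46, Mypn by 0.45 and Fhl1 by 0.39 (adjusted p of 0.138 to 0.206). Without MCT 1, Vcl differed by 0.50 and Palld by 0.30. Of 11 contractile isoform genes 0 passed, with a median of 0.10; Myh7 differed by 0.69 and the smooth muscle actin Acta2 by 0.66 (adjusted p = 0.208 and 0.136), and Myh7 by 0.35 without PS 2. Of 19 hypertrophy and wall stress genes 0 passed, with a median of 0.11, and Il33, a cytokine released by injured tissue, differed by 0.90 (adjusted p = 0.134) and by 0.57 without PS 2. Of 14 targets of YAP and serum response factor 0 passed, with a median of 0.39; the receptor kinase Axl differed by 0.89 and the smooth muscle gene Cnn1 by 1.22 (adjusted p = 0.119 and 0.138), the last by 0.80 without PS 2. Vcl stands in the last list as well. Of 14 glucocorticoid response genes 2 passed, Fkbp5 at 2.46 and Tsc22d3 at 0.84 (adjusted p = 0.00137 and 0.0337 in limma), with a median of 0.81. Of all 12736 transcripts tested in heart 0.33% passed. The median over all transcripts tested was 0.06. The 10 measured smooth muscle and pericyte markers averaged 7.83 to 8.18 in PS hearts and 7.21 to 7.58 in MCT hearts. The 15 markers of skeletal muscle, the tissue in which Acta1 is usually expressed, averaged 4.88 to 4.99 in PS hearts and 5.08 to 5.13 in MCT hearts. These skeletal means lay near the heart filter of 4.935, and 6 of the 15 genes were above it, of which 0 passed. The part of both lists in these values was not tested.

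In cerebrum the filter left Acta1 to be tested, and 0 of 1 passed, where 5.76% of 12733 transcripts did. Acta1 was 6.65, 6.67 and 6.22 in PS cerebra, and 6.36, 5.97 and 6.12 in MCT cerebra. PS 1 and PS 2 were above all MCT arrays and PS 3 was within their range. The difference was 0.36 ± 0.15 (SE, adjusted p = 0.164 in limma), and 0.51 without PS 3 (adjusted p = 0.0435). It was −0.11 with the striatal marker mean as a covariate (adjusted p = 0.855). That mean was lower in every PS than in any MCT cerebrum, so its part and that of PS cannot be told apart.

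Nexn was 3.69, 3.60 and 4.46 in PS cerebra, and 5.59, 5.90 and 5.29 in MCT cerebra. Every PS array was below every MCT array, which held for 14.3% of 21218 transcripts in cerebrum, and PS 3 was the nearest to them. Its mean over the 6 arrays was below the filter, so it was tested in the fit without a filter, in which 1 of the 8 genes passed, against 2.42% of 21218 transcripts. In that fit Nexn fell by 1.68 on the log2 scale, or 3.20-fold, with a 95% interval of −2.27 to −1.09 (adjusted p = 0.0361 in limma). The PS values were below the filter, so the size is approximate.

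The call was lost without PS 1, PS 2, MCT 1 or MCT 2 (adjusted p of 0.0735 to 0.189) and held without PS 3 or MCT 3 (adjusted p = 0.00419 and 0.0435), with a difference of −1.95 to −1.52 throughout. Striatal markers moved with Nexn. All 10 measured members were lower in PS cerebra, with a median difference of −1.87. In the fit with the filter 4 of them passed, where 5.76% of 12733 transcripts did. Their mean was lowest in PS 1 and PS 2, intermediate in PS 3 and highest in the MCT arrays, as for Nexn. Penk, an enkephalin precursor of striatal neurons, was 9.08, 9.13 and 11.57 in PS cerebra, and 11.80, 11.81 and 11.77 in MCT cerebra. With the striatal mean as a covariate Nexn differed by −0.80 (adjusted p = 0.483 in limma). With the sex pattern as a term it differed by −1.99. Among PS cerebra PS 2 alone had the male pattern that all MCT cerebra had, so this value sets PS 2 alone against them. The striatal mean was lower in every PS cerebrum than in any MCT cerebrum. The fit with it therefore cannot tell its part from that of PS.

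**Figure D5:**
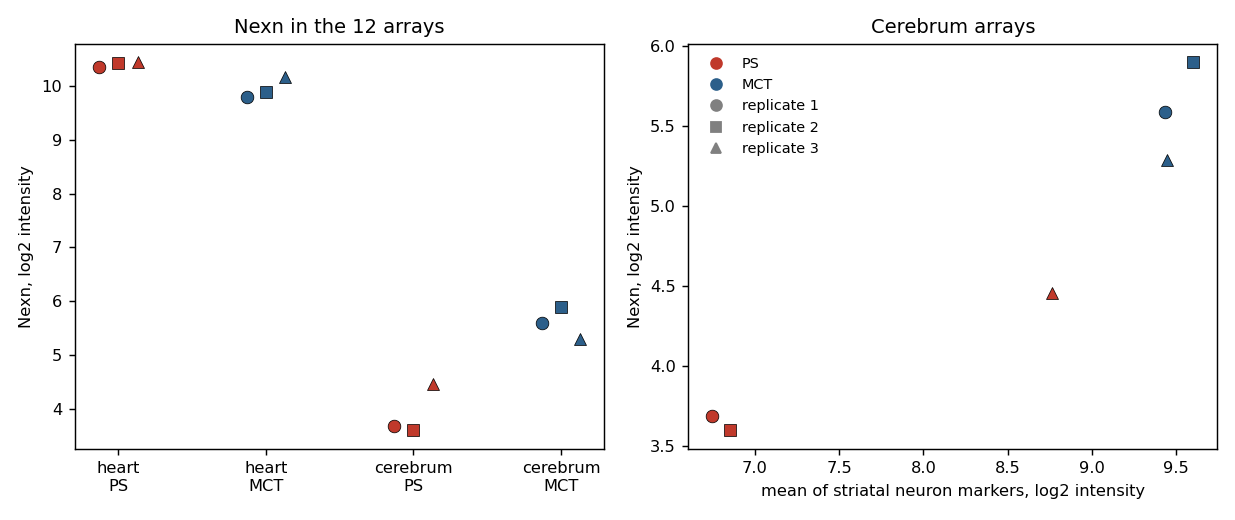
Nexn log2 intensity in the 12 arrays by group (left) and, in the 6 cerebrum arrays, against the mean log2 intensity of 10 striatal neuron markers (right), red for PS and blue for MCT with a marker per replicate. PS cerebra 1 and 2 are low on both axes, PS 3 lies between, at 4.46 for Nexn and 8.76 for the markers, and the MCT cerebra are high on both.

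The other 6 genes differed little in cerebrum: Nppb by 0.24, Xirp1 by 0.11, Ankrd1 by 0.09, Xirp2 by 0.07, Csrp3 by 0.05 and Nppa by 0.02, with adjusted p of 0.318 to 0.955 in the fit without a filter. Their levels lay between 3.23 and 4.58 in PS cerebra and 3.03 and 4.45 in MCT cerebra, where the array resolves little. Around them, 2 of 10 tested natriuretic peptide pathway genes passed in cerebrum, where 5.76% of 12733 transcripts did. Mme, the neutral endopeptidase that degrades natriuretic and other peptides, fell by 1.39 (adjusted p = 0.0227). It was 5.90, 5.63 and 6.45 in PS cerebra, and 7.47, 7.31 and 7.38 in MCT cerebra, and the striatal marker mean moved with it, lower in PS 1 and PS 2 than in PS 3; the markers' part in its fall was not tested. Furin, a proprotein convertase that cleaves the Nppb precursor, rose by 0.43 (adjusted p = 0.0487). Of 11 tested Z-disc genes 0 passed, with a median of −0.04, and Actn2, alpha-actinin of the Z-disc, which neurons also express, differed by −1.03 (adjusted p = 0.141), and by −1.56 without PS 3. It was 6.47, 6.27 and 7.96 in PS cerebra, and 7.79, 7.94 and 8.07 in MCT cerebra, so that PS 1 and PS 2 were low, as for the striatal markers, whose part was not tested. The median over all transcripts tested was −0.03.

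Whether the PS difference depended on the tissue was tested over all 12 arrays, with the heart difference minus the cerebrum difference. Of the 8 genes 1 passed, where 1.52% of 12731 transcripts did and 1.1% did so in the direction of Nexn. For Nexn the term was 2.14 ± 0.30 (SE, adjusted p = 0.0125 in limma), made of 0.46 in heart and −1.68 in cerebrum. Nexn entered this fit through its heart level, and since the PS cerebra lay below the cerebrum filter the size of the term is approximate. The call ended without cerebrum MCT 1 (2.14, adjusted p = 0.0557), and over the other arrays left out in turn the adjusted p was 2.45e-04 to 0.0402. For Acta1 the term was −0.99 (adjusted p = 0.175) and for Nppb −1.29 (adjusted p = 0.246). Without heart MCT 3, Acta1 at −1.22 and Xirp1 at 0.71 passed beside Nexn (adjusted p = 0.0454 and 0.0470 in limma). That fit called 1629 transcripts, against 194 of 12731 with all arrays. Without heart MCT 1 the Xirp1 term was 0.25 (adjusted p = 0.472), against 0.51 with all arrays.

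The genes with the nearest profiles over the 12 arrays were found by the root mean square difference after each profile's own mean was taken away. For Ankrd1 these were Myl2 at 0.20 and Actc1 at 0.26, for Xirp2 Apobec2 and Mybpc3 at 0.18 each, for Xirp1 Asb2 at 0.17 and Gata6 at 0.18, and for Csrp3 Fabp4 at 0.19 and Apobec2 at 0.22. For Acta1 they were Casp12 at 0.27 and Lyz2 at 0.30, and for Nppa Dpt at 0.43 and Fabp4 at 0.44. Nppb was nearest to Dpt at 0.50 and Rbp7 at 0.61, and Nexn to Bves at 0.45 and Lpl at 0.46. The nearest profiles of Nppa, Nppb and Nexn thus lay farther away than those of the other 5 genes.

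Casp12 followed Acta1 in heart, at 6.28, 7.28 and 6.19 in PS hearts, and 7.55, 7.26 and 6.41 in MCT hearts. Asb2 was higher in every PS heart than in any MCT heart, as Xirp1 was, at 10.88, 10.65 and 10.77 in PS hearts, and 9.94, 10.21 and 10.60 in MCT hearts. Lpl, the nearest of the 2 to Nexn in heart at 0.13, was 11.78, 11.73 and 11.74 in PS hearts, and 11.39, 11.51 and 11.66 in MCT hearts, and in cerebrum 6.02, 6.37 and 6.64 in PS and 7.15, 7.03 and 6.97 in MCT arrays. As for Nexn, all PS values of Lpl lay above the MCT values in heart and below them in cerebrum. Bves, the nearest to Nexn over all arrays, was 11.22, 10.84 and 10.86 in PS hearts, and 10.80, 11.07 and 10.75 in MCT hearts. The heart groups of Bves thus overlapped, while in cerebrum its PS values lay below the MCT values. All these genes were picked for likeness over the same arrays, so a shared pattern follows from the choice.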

How the data were processed

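RNA from heart and cerebrum was hybridised to Affymetrix whole-transcript arrays. Per the submitters' processing notes, Affymetrix Expression Console was used, and the authors deposited log2 intensity values per transcript cluster. Its version, the summary step and the build are not named. The log2 scale was read from the deposited values, which ran from 1.9 to 13.11. They were used without further normalization. Their array medians were nearly equal, so a shift of all transcripts at once would not show. No 2 arrays were identical.

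Comparisons used limma 3.58.1 (lmFit, eBayes) in R 4.3.3, two-sided, with Benjamini-Hochberg adjustment over all transcripts with 1 gene symbol whose mean over the arrays fitted reached the 40th percentile, and a threshold of 0.05. The filter was 4.935 in heart and 5.04 in cerebrum. The fits were tested on simulated data. The p-values measure the spread between these arrays.

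Named were the 8 genes, the 2 nearest profiles of each, and up to 4 genes of each list by lowest p; genes said to be chosen after their values were seen, Penk and those in the plot of heart arrays fall outside that rule. The genes, lists and tests were chosen with earlier results of these data known. Lists were counted, not tested as sets. Alternatives covered other filters, scalings, limma settings, covariates, thresholds, the replicate number as a block and leaving out each array. Deviations of equal numbers correlated over transcripts at 0.114, 0.102 and 0.287 between heart and cerebrum of MCT mice, where unequal numbers gave −0.248 to 0.191. Between heart and cerebrum of PS mice equal numbers gave 0.115, 0.098 and 0.054, against −0.109 to 0.026 for unequal ones. Between PS and MCT hearts they gave 0.032, 0.086 and 0.122, against −0.152 to 0.022. Between PS and MCT cerebra they gave 0.113, −0.150 and −0.263, against −0.162 to 0.275. The labels give no source for the pairing.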

Additional observations from a re-analysis of the deposited data

Results flagged for a closer look

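The PS difference of Nexn ran in opposite directions in the tissues: 0.46 in heart and −1.68 in cerebrum, a difference between them of 2.14 ± 0.30 on the log2 scale (SE, adjusted p = 0.0125 in limma over 12 arrays). All 3 PS hearts were above all 3 MCT hearts, and all 3 PS cerebra were below all 3 MCT cerebra. The PS cerebra lay below the filter, so the size is approximate. The striatal marker mean moved with Nexn in cerebrum, and the sex pattern moved with PS in heart. With the striatal mean as a covariate Nexn differed by −0.80 in cerebrum (adjusted p = 0.483 in limma). The striatal mean was lower in every PS than in any MCT cerebrum, so that fit cannot tell its part from that of PS. The part of the striatal markers or the sex pattern in the difference between the tissues was not tested.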

How the results depend on the processing

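Of 671 values of the 8 genes recomputed under alternatives, 623 kept their direction and side of the threshold, 22 passed it in addition, 1 no longer passed and 25 changed sign. For Nexn in cerebrum this tally starts from the fit with the filter, where it was not tested. Of 13 settings joined with no filter, it did not pass in 6: without PS 1, PS 2, MCT 1 or MCT 2, with the replicate block and with the striatal mean. Among the others, the setting with the sex pattern rests on PS 2 as the only PS cerebrum with a male pattern. The Myl7, remodelling and striatal covariates, and the fits in cerebrum that joined no filter with another setting, were chosen after seeing the data. In both tissue comparisons every tested gene was called under every alternative run, though the fit with array weights in MCT mice did not converge. In heart, 6 genes passed with array weights, a fit that did not converge and weighted MCT 2 at 38.9 and called 54.9% of all transcripts. With Myl7 as a covariate, which called 1400 transcripts, 1 passed. Leaving out each array gave 0 to 3, the 3 without MCT 3. No other setting gave a call in heart, MCT 3 and PS 3 left out together among them. In cerebrum 1 passed without a filter and 1 over every transcript of the table, and leaving out each array gave 0 to 1. For the difference between tissues 0 passed at a threshold of 0.01, and leaving out each array gave 0 to 3.

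The changes of sign were of differences that had not passed, and the cause was not tested. In heart Nppa was −0.33 with array weights and −0.20 with the remodelling mean (−0.087 to 0.71 leaving out each array), and Ankrd1 was 0.055 without MCT 3 and PS 3 (−0.29 to 0.055). In cerebrum without a filter, the sex pattern as a term gave −0.17 for Nppa and −0.0067 for Ankrd1, values that set PS 2 alone against the MCT arrays. Quantile normalization and median centring gave −0.025 and −0.013 for Nppa. The striatal mean gave −0.026 for Ankrd1, −0.11 for Acta1 (with the filter too), −0.023 for Xirp1 and −0.060 for Xirp2. Leaving out each array gave −0.085 to 0.11 for Nppa (−0.063 without MCT 1), −0.027 to 0.16 for Xirp2 and −0.037 to 0.13 for Csrp3. For the difference between tissues Nppa was −0.064 with array weights (−0.10 to 0.70 leaving out each array), and Xirp2 was −0.055 to 0.20. The fit with array weights did not converge there either.

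With the replicate number as a block, 0 genes passed in heart, 0 in cerebrum, 8 in each tissue comparison and 1 for the difference between tissues (Nexn, adjusted p = 0.0257). Nexn in cerebrum without a filter did not pass with the block (−1.68, adjusted p = 0.152). The samples there share only a number, with correlations of 0.113, −0.150 and −0.263. No other call changed. The 3 arrays per group and levels near background in cerebrum limit what could be detected.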
